A study of Mus musculus with 27 samples.

Results

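RNA of cells sorted as DAT+ from the substantia nigra pars compacta (SNc) was set against that of cells sorted the same way from the nucleus accumbens (NAc), both at postnatal day 30 (P30). The comparison holds 6 of the 27 libraries of the series, 3 of SNc and 3 of NAc, chosen by their region and age labels. All mice were C57/BL6, with no treatment in the labels, and DAT is the dopamine transporter encoded by Slc6a3. SMART-seq2 libraries, which copy whole polyadenylated transcripts from small amounts of RNA, were read as 150-base pairs on an Illumina NovaSeq. The other 21 libraries, from the ventral tegmental area (VTA) at P30 and from 3 regions at P7 and P60, entered the same fit so that all 9 groups share an estimate of spread. Per the design text 5 mice were used per age, without a statement of how mice map to libraries. The p-values therefore measure the spread between libraries, which may be technical.

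Dopamine neurons of the SNc send their axons mainly to the dorsal striatum, and those of the neighbouring VTA supply the NAc. The NAc itself is the ventral part of the striatum: its main residents are GABAergic projection neurons, of which one class carries the dopamine receptor Drd2, the adenosine receptor Adora2a and the peptide precursor Penk, and another carries Drd1, Tac1 and Pdyn. Cell bodies of dopamine neurons lie in the midbrain and their axon terminals in the striatum. Tissue dissociated from either region also holds microglia, astrocytes, oligodendrocytes and vessel cells.

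The 6 libraries held little RNA of the markers that define dopamine neurons. Levels are given as rescaled FPKM, fragments scaled for gene length and library size, after each library was brought to the same sum of fragments in genes. Slc6a3 was at 0, 0.156 and 0 in SNc and at 0, 2.32 and 0 in NAc. Th, tyrosine hydroxylase of dopamine synthesis, was at 0, 0 and 1.27 in SNc and at 0 in the 3 NAc libraries, where 3 reads would have been worth up to 0.191. Pitx3, En1, En2, Foxa1 and Foxa2, transcription factors of midbrain dopamine neurons, had 0 reads in all 6 libraries. The microglial gene Tmem119, by contrast, stood at 2087, 2800 and 1848 in SNc and at 2129, 1672 and 2008 in NAc, and the purinergic receptor gene P2ry12 at 852, 1497 and 1088 in SNc and at 1131, 889 and 977 in NAc. Slc6a3, Th, Tmem119, P2ry12 and the further markers Slc18a2, Ddc, Nr4a2 and C1qa did not pass the test between the regions (limma). The libraries are therefore called by region here, not by cell type. In such bulk libraries fewer cells of a type and less RNA per cell cannot be told apart.

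Reads in genes came to between 9248048 and 9619158 in SNc and between 6660850 and 10169545 in NAc. Genes with at least 1 read numbered 12437, 16294 and 13534 in SNc replicates 1 to 3, against 16779 to 17928 in NAc, so SNc replicates 1 and 3 stood below the 4 other libraries. The same SNc replicates 1 and 3 had 14.7% of their reads in mitochondrially encoded genes, against 7.70% in SNc replicate 2 and 6.05% to 8.14% in NAc. Rank correlations over the genes tested ran from 0.689 to 0.736 among SNc libraries, from 0.729 to 0.753 among NAc libraries and from 0.649 to 0.728 between the regions. The part of these library differences in the results below was not tested.

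At P30 most of the genes that differed were lower in SNc. Of 18888 genes tested with limma on log2(rescaled FPKM + 1), 429 passed an adjusted p of 0.05 (2.27% of the genes tested). Of these, 40 were higher in SNc (0.212%) and 389 lower (2.06%). The 3 SNc values did not overlap the 3 NAc values in 411 of the 429. Among all genes tested, groups without overlap were found for 751 with SNc higher (3.98%) and 3514 with SNc lower (18.6%). The median difference of all genes was -0.43 on the log2 scale, and it was not subtracted from the changes below. Of the genes that fell, 107 had 0 reads in the 3 SNc libraries. Quantile normalization, which removes that median difference (0.018), gave 63 higher and 92 lower, so that 40.6% of calls were higher instead of 9.32%. Voom with sample weights on the reads recovered from the FPKM gave 278 higher and 464 lower (37.5% higher).

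The count depended on single libraries and on the shared spread. It was 125 without SNc replicate 1, 182 without SNc replicate 3, 262 without SNc replicate 2, 268 without NAc replicate 1 and 285 without NAc replicate 2. It was 685 without VTA P30 replicate 3, in which 6786 genes had a read, against 14546 and 14430 in VTA P30 replicates 1 and 2. The deposited values of that library are on another scale, but the fit used values rescaled to a common sum. A limma fit of the 6 libraries alone called 0 genes, with 3141 at an unadjusted p below 0.05, while the fit of all libraries had 3104. With SNc replicate 2 as the lone SNc library at P30, assumed to vary like the other groups, 9 genes passed, 8 higher and 1 lower (88.9% higher), and 1 of the 9 was among the 429.

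**Figure D1:**
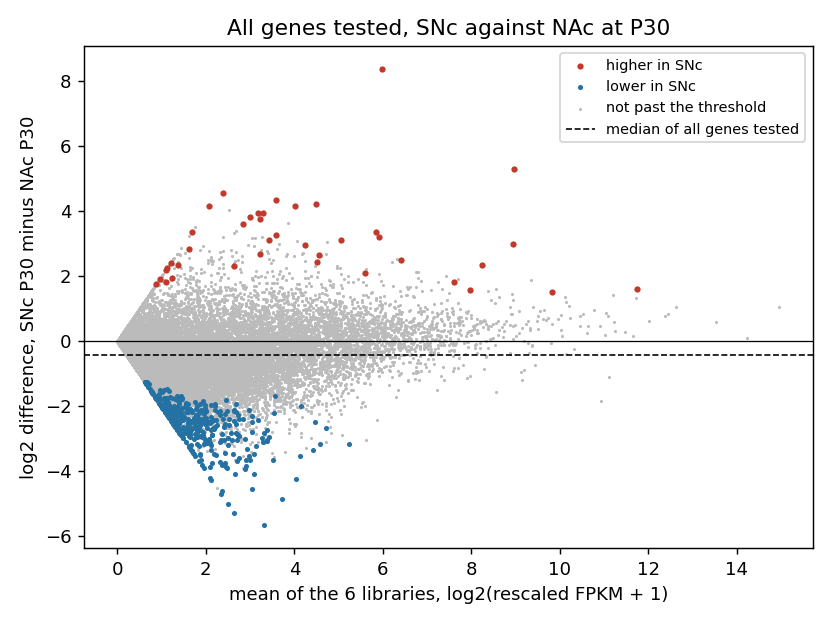
Difference between SNc and NAc at P30 (vertical axis, log2) against the mean of the 6 libraries (horizontal axis, log2 of rescaled FPKM + 1) for the 18888 genes tested, each a point. The 40 genes higher in SNc are red, the 389 lower are blue, and the dashed line marks the median of all genes at -0.43, below 0.

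Genes of striatal projection neurons were among those that fell in SNc. Of 20 such genes, all tested, 9 fell and 0 rose, and the SNc and NAc values did not overlap in 12. Among all genes tested 2.06% fell, and 18.6% separated the regions with SNc lower. The median difference was -1.84, against -0.43 over all genes, and the summed level was 28.9 to 75.9 in SNc and 177 to 281 in NAc. Penk, the precursor of the enkephalin peptides (chr4:4133531-4138819, GRCm38), was at 0, 1.79 and 0 in SNc and at 56.3, 85.6 and 72.1 in NAc. Every NAc library was far above every SNc library, and SNc replicate 2 alone had reads. The log2 fold change was -5.66 ± 0.69 (SE), with an adjusted p of 0.000197 by limma, the smallest of the comparison, shared with the predicted gene Gm13134. Adora2a, an adenosine receptor, was at 0.279, 1.02 and 0.034 in SNc and at 12.5, 20.7 and 12.6 in NAc. Rasd2, a small GTPase enriched in striatum, had 0 reads in the 3 SNc libraries and stood at 9.20, 16.6 and 5.20 in NAc, at least 103-fold lower in SNc against a floor of 3 reads per library. Bcl11b, a transcription factor of these neurons, was at 0.303, 0 and 0 in SNc and at 2.23, 14.7 and 8.37 in NAc. For each of these genes the lowest NAc library lay above the highest SNc library.

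Others of the 9 were the tachykinin precursor Tac1 (-2.76 ± 0.65), the cyclic nucleotide phosphodiesterases Pde10a (-2.78 ± 0.53) and Pde1b (-2.39 ± 0.62), and the phosphoprotein gene Arpp21 (-1.94 ± 0.42). Their adjusted p-values by limma lay between 0.00573 for Pde10a and 0.0403 for Pde1b. Markers of both projection classes were thus among the 9, Penk and Adora2a of the Drd2 class and Tac1 of the Drd1 class. The receptors themselves were low in both regions. Drd1 was at 0 in the 3 SNc libraries and at 3.14, 1.93 and 0.290 in NAc (adjusted p = 0.244 by limma), and Drd2 at 0, 1.70 and 0.041 in SNc and at 2.78, 8.08 and 2.12 in NAc (adjusted p = 0.219). Ppp1r1b, the DARPP-32 gene and the usual marker of all these neurons, overlapped between the regions, at 22.2, 13.6 and 61.4 in SNc and at 22.6, 63.9 and 59.5 in NAc (adjusted p = 0.755).

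Penk, Adora2a, Rasd2, Bcl11b and Pde10a passed with any of the 6 libraries left out. Arpp21 did not without SNc replicate 2, SNc replicate 3 or NAc replicate 3 (adjusted p up to 0.0566 by limma). Tac1 did not without any SNc library or NAc replicates 1 or 2 (up to 0.0901), and Pde1b did not without SNc replicates 1 or 3 or any NAc library (up to 0.178). On quantile-normalized values 3 of the 20 fell, the median being -1.25, and on the deposited scale 5. The fit on the deposited scale, here and below, kept VTA P30 replicate 3 in its other unit. At P30 VTA libraries, Penk stood at 0, 0.147 and 0.118 (the last in replicate 3, with few detected genes), and Tac1 and Rasd2 had 0 reads.

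Of 12 genes tested that pattern the telencephalon, the forebrain part from which the striatum arises, 1 fell and 0 rose. The one was Dlx6, a homeobox gene of GABAergic neurons, which had 0 reads in SNc and stood at 2.69, 6.68 and 7.59 in NAc (at least 42.1-fold lower in SNc, adjusted p = 0.0134 by limma, and 0.0541 without SNc replicate 1). Dlx1 had 0 reads in SNc and 2.88, 1.64 and 2.67 in NAc, with an adjusted p of 0.0574. The regions did not overlap for 6 of the 12 genes, SNc being lower in each. Of all genes tested, 2.06% fell and 18.6% separated the regions in that direction. The summed level of the list was 1.36 to 5.41 in SNc and 19.7 to 34.9 in NAc. Of 8 tested genes that pattern the midbrain, 0 passed and 0 separated the regions, with a median difference of 0.09. Of the 20 midbrain genes listed, 8 had 0 reads in all 6 libraries, among them Irx5, which was tested because of reads in other libraries of the series.

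Of 14 pan-neuronal genes 2 fell, Syt1 and Eno2, 0 rose and 9 separated the regions with SNc lower (median difference -1.21). The shares over all genes tested were 2.06% that fell and 18.6% that separated with SNc lower. Syt1, the calcium sensor of synaptic vesicles, was at 0.051, 0.791 and 0.711 in SNc and at 22.0, 12.5 and 23.5 in NAc (log2 fold change -3.73 ± 0.62, adjusted p = 0.00239 by limma). Eno2, the neuronal enolase, was at 1.46, 2.46 and 0.309 in SNc and at 13.5, 15.98 and 15.1 in NAc (adjusted p = 0.00621). For both the lowest NAc library was several times the highest SNc library, and both passed with any of the 6 libraries left out. Snap25, a vesicle fusion gene, was at 10.2, 5.81 and 11.6 in SNc and at 17.3, 14.0 and 12.3 in NAc, without a call (adjusted p = 0.688).

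Among 12 tested genes of GABAergic and glutamatergic neurons 3 fell and 0 rose, while 2.06% of all genes tested fell. The median difference was -1.05. Gad2, a GABA-synthesizing enzyme, was at 0.018, 0.129 and 0.106 in SNc and at 17.6, 8.66 and 9.17 in NAc (log2 fold change -3.50 ± 0.63, adjusted p = 0.00424 by limma). Camk2a, a synaptic kinase, was at 10.01, 9.59 and 3.34 in SNc and at 73.2, 62.1 and 77.7 in NAc (-3.17 ± 0.65, adjusted p = 0.0108, and 0.0684 without SNc replicate 3). Slc17a7, a vesicular glutamate transporter, was at 1.21, 0.020 and 0 in SNc and at 4.72, 4.51 and 9.52 in NAc (adjusted p = 0.0373), a call lost without any 1 of the 6 libraries (up to 0.130). All 3 genes separated the regions.

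Of 22 genes for GABA and glutamate receptors 3 fell and 0 rose, while 2.06% of all genes tested fell. The median difference was -1.23. In 14 of 22 the regions separated with SNc lower, against 18.6% of all genes. The 3 encode glutamate receptor subunits: Gria2 at 2.98, 1.81 and 2.77 in SNc and at 19.3, 21.0 and 15.4 in NAc (-2.48 ± 0.47, adjusted p = 0.00545 by limma), Gria3 (-2.13 ± 0.54) and Grm5 (-2.02 ± 0.51), both with an adjusted p of 0.0366. Gria2 passed with any library left out, whereas Gria3 and Grm5 lost their calls without any 1 of the 6 (up to 0.133 and 0.136). No GABA receptor gene passed.

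The 15 largest decreases named by rule were, in order, Penk, Dkk3, Crym, Cyp4f15, Igsf21, Neu4, Syt5, Oaf, Gng7, Insyn1, Atcay, Cnih2, Syt1, Caly and AU021092. Several are genes of neurons or of striatum. Dkk3, a secreted relative of the Wnt inhibitors, was at 0.032, 8.95 and 0.464 in SNc and at 88.4, 66.2 and 57.7 in NAc (-4.84 ± 0.71, adjusted p = 0.00115 by limma). Crym, a thyroid hormone binding protein, was at 3.78, 0.032 and 0 in SNc and at 16.01, 55.3 and 62.7 in NAc (-4.53 ± 0.77, adjusted p = 0.00311). Gng7, a G protein subunit abundant in striatum, was at 0, 0 and 0.027 in SNc and at 16.9, 11.2 and 14.3 in NAc (-3.89 ± 0.77, adjusted p = 0.00805). In SNc, single libraries held most of what was seen: replicate 2 for Dkk3 and replicate 1 for Crym.

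Cnih2, an AMPA receptor auxiliary subunit, was at 0.692, 0 and 0 in SNc and at 11.1, 16.4 and 18.7 in NAc. Caly, a vesicle trafficking protein of neurons, was at 0, 1.67 and 0 in SNc and at 17.5, 12.8 and 22.8 in NAc. Insyn1, an inhibitory synapse protein, was at 0.413, 0 and 0 in SNc and at 8.06, 24.2 and 18.1 in NAc. These 3, with Syt1, Dkk3, Crym, Neu4, Oaf, Gng7 and Atcay, passed with any library left out. Cyp4f15 (adjusted p up to 0.114 by limma, without SNc replicate 1 or NAc replicate 2), Igsf21 (up to 0.101, without SNc replicates 1 or 3 or NAc replicate 2), Syt5 (up to 0.102, without SNc replicates 1 or 3) and AU021092 (up to 0.120, without any library) did not.

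**Figure D2:**
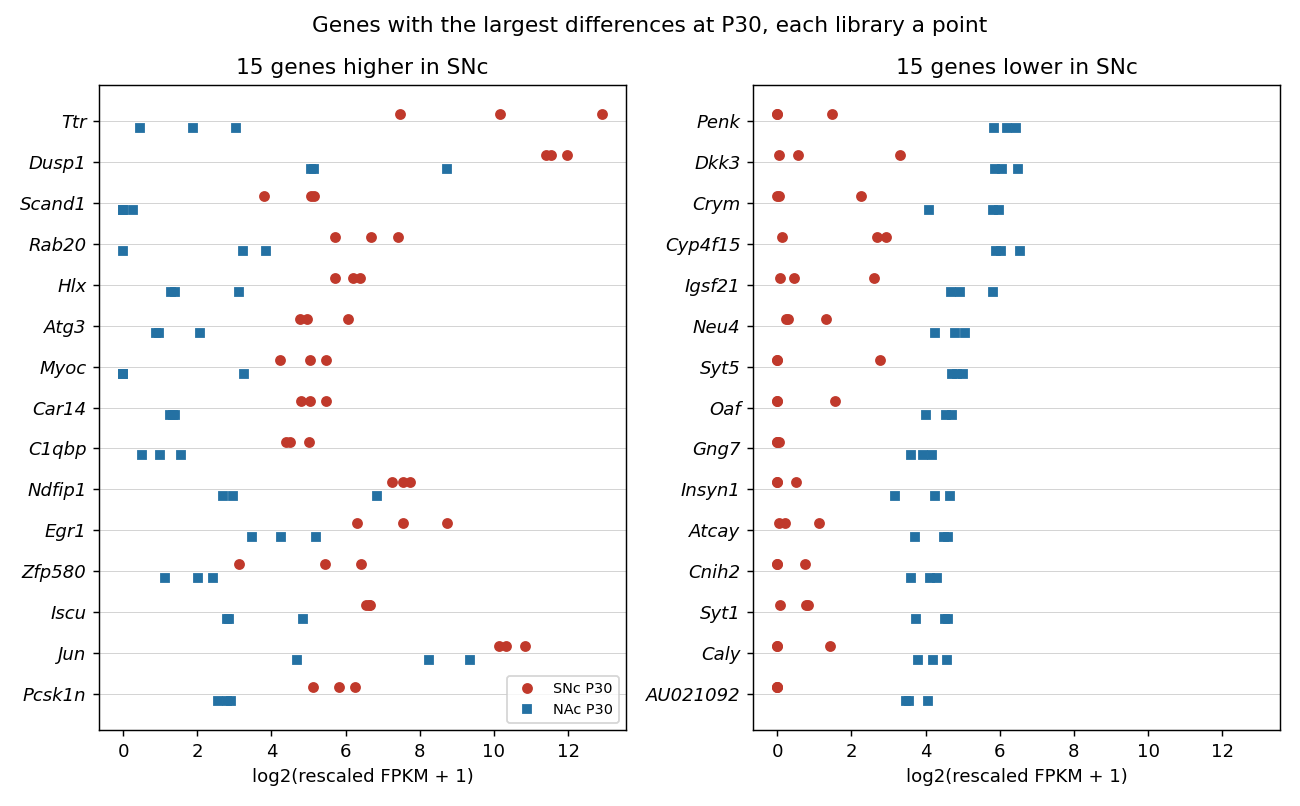
Level of the 15 genes with the largest increases (left) and of the 15 with the largest decreases (right) in each library, as log2 of rescaled FPKM + 1 (horizontal axis). Red circles are the 3 SNc and blue squares the 3 NAc libraries at P30, and no gene has overlapping groups because the naming rule asked for that. Penk lies near 0 in SNc and near 6 in NAc, and Dusp1 above 11 in SNc.

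Immediate early genes, which neurons and glia transcribe within minutes of a stimulus, had members higher in SNc. Of 20 members, all tested, 4 rose and 0 fell, 7 separated the regions with SNc higher and 1 with SNc lower, and the median difference was 0.81. Among all genes tested 0.212% rose, 3.98% separated with SNc higher and 18.6% with SNc lower. The summed level was 8435 to 15502 in SNc and 2744 to 3580 in NAc. The 4 were Dusp1, Egr1, Jun and Ier2. Dusp1, a phosphatase that switches off MAP kinases (annotated gene span chr17:26505590-26562128, GRCm38), was at 2950, 3974 and 2707 in SNc and at 32.3, 422 and 34.5 in NAc. NAc replicate 2 was the highest NAc library and yet below each SNc library. The log2 fold change was 5.32 ± 0.80, with an adjusted p of 0.00115 by limma.

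Jun, a subunit of the AP-1 transcription factor, was at 1130, 1828 and 1290 in SNc and at 25.0, 659 and 301 in NAc (3.00 ± 0.76, adjusted p = 0.0366 by limma). Egr1, a zinc finger transcription factor, was at 77.9, 428 and 188 in SNc and at 18.2, 35.8 and 10.04 in NAc (3.22 ± 0.69, adjusted p = 0.0145). Ier2 was at 374, 1203 and 688 in SNc and at 41.0, 231 and 243 in NAc (2.35 ± 0.61, adjusted p = 0.0397). NAc replicate 1 was the lowest library for Jun and Ier2, and SNc replicate 2 the highest for all 4. The promoter windows of Dusp1 and Jun are shown because they are the members past the threshold for which RefSeq windows were at hand. These windows (GRCm38.p6) run from 250 bases before to 50 after the transcription start. The RefSeq start of Dusp1 lies inside the annotated gene span given above, not at its end. Capitals mark TGACNTCA, a form of the site of CREB, ATF and AP-1 factors, searched on both strands with no other motif.
Dusp1 (chr17:26508423-26508722, minus strand): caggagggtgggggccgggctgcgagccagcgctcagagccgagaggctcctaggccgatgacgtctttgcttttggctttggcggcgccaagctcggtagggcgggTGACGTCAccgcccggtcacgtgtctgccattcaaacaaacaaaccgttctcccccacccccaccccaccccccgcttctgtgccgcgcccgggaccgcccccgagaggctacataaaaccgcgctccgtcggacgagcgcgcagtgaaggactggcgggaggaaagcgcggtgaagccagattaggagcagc
Jun (chr4:95052173-95052472, minus strand): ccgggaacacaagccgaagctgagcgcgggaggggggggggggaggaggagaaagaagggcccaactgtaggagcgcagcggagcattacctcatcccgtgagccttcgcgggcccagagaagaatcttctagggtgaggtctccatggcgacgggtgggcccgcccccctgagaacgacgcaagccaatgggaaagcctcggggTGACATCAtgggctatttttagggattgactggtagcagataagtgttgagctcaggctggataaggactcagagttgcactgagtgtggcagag
The match begins 143 bases before the start in Dusp1 and 45 bases before it in Jun. It occurs in 8.83% of all 32851 windows. Counted by gene, with a match in any window of the gene, it occurs in 4 of the 17 immediate early genes with a window. A share of windows and a share of genes cannot be compared directly. A match is a description of the sequence and not a measured binding site.

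Other immediate early genes overlapped between the regions or missed the threshold. Fos was at 460, 2225 and 1107 in SNc and at 839, 429 and 799 in NAc (adjusted p = 0.645 by limma). Junb was at 2141, 2033 and 1261 in SNc and at 424, 912 and 840 in NAc, without overlap and without a call (adjusted p = 0.328). Nr4a1 was at 121, 197 and 83.2 in SNc and at 98.9, 90.7 and 78.2 in NAc (adjusted p = 0.837). Dusp1 passed with any library left out. Egr1 did not without SNc replicates 2 or 3 or NAc replicate 3 (up to 0.0723), and Jun and Ier2 did not without any SNc library or NAc replicate 1 (up to 0.189 and 0.214). Egr1 and Dusp1 were called on quantile-normalized values, and on the deposited scale Dusp1 alone. At P30 in VTA, Dusp1 was at 329, 3565 and 1669 and Jun at 1970, 1966 and 404, the last of each in replicate 3, with few detected genes.

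The largest increase of all belonged to Ttr, transthyretin, a carrier of thyroid hormone and retinol made, within the brain, mainly by the choroid plexus. It was at 1135, 176 and 7765 in SNc and at 2.66, 7.27 and 0.369 in NAc. All SNc libraries lay above all NAc libraries, with replicate 3 the highest of the SNc libraries and replicate 2 the lowest. The log2 fold change was 8.39 ± 1.06, with an adjusted p of 0.000237 by limma that stayed below the threshold with any library left out (up to 0.00407), although voom gave 0.130. The other 9 ependymal and choroid plexus markers did not pass, and the list median was -0.47. Folr1, a choroid plexus folate receptor, was at 0, 9.98 and 21.8 in SNc and at 0, 0 and 2.75 in NAc. Kl, another choroid plexus gene, was at 0, 0.881 and 1.17 in SNc and at 0, 0.015 and 0 in NAc. Foxj1, the factor of ciliated ependymal cells, was at 0, 3.88 and 12.9 in SNc and at 2.10, 20.5 and 30.7 in NAc. The highest SNc library for Ttr, replicate 3, was also the highest SNc library for these 3 genes, while in SNc replicate 1, with Ttr at 1135, Folr1, Kl and Foxj1 were at 0. Whether Ttr came from choroid plexus RNA was not tested.

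Beside Ttr, Dusp1, Egr1 and Jun, the 15 largest increases named by rule were Scand1, Rab20, Hlx, Atg3, Myoc, Car14, C1qbp, Ndfip1, Zfp580, Iscu and Pcsk1n. Car14, a membrane-bound carbonic anhydrase, was at 31.6, 26.8 and 43.7 in SNc and at 1.66, 1.41 and 1.54 in NAc (3.76 ± 0.74, adjusted p = 0.00764 by limma). Scand1, a SCAN domain protein gene, was at 32.7, 12.8 and 34.2 in SNc and at 0, 0 and 0.198 in NAc, where 1 read was seen (4.58 ± 0.90, adjusted p = 0.00754). Iscu, a scaffold of iron-sulfur cluster assembly, was at 92.7, 99.1 and 98.6 in SNc and at 5.97, 27.9 and 6.28 in NAc (3.11 ± 0.67, adjusted p = 0.0163). Car14 had a narrow spread in both regions, and Car14 and Scand1 passed with any library left out.

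The calls of the 9 others were less stable. Atg3, an enzyme of autophagosome formation, was at 65.5, 29.9 and 26.3 in SNc and at 3.21, 0.952 and 0.857 in NAc (adjusted p = 0.0301 by limma, up to 0.122 without any library but NAc replicate 1). Ndfip1, an adaptor of ubiquitin ligases, was at 187, 213 and 152 in SNc and at 5.50, 113 and 6.78 in NAc, with NAc replicate 2 nearest to SNc (adjusted p = 0.0300, up to 0.133 without any library but NAc replicate 2). Hlx, a homeobox gene, was at 51.8, 82.4 and 72.7 in SNc and at 1.47, 1.63 and 7.78 in NAc (adjusted p = 0.0262). Of the fits with 1 library left out, Hlx, Rab20 and Myoc passed in the fit without NAc replicate 3 alone (up to 0.0823, 0.210 and 0.150 in the others), C1qbp in that without NAc replicate 2 alone (up to 0.110), Zfp580 in that without SNc replicate 2 alone (up to 0.177) and Pcsk1n in none (up to 0.129). Iscu did not pass without SNc replicates 1 or 3 or NAc replicates 1 or 3 (up to 0.0672).

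Of 14 genes of myelinating oligodendrocytes 1 rose, Mbp, and 0 fell, with 7 separating the regions and SNc higher in each. Among all genes tested 0.212% rose and 3.98% separated with SNc higher. The list had a median difference of 1.41 and a summed level of 585 to 1312 in SNc and 268 to 291 in NAc. Mbp, the myelin basic protein gene, was at 143, 178 and 323 in SNc and at 35.5, 29.5 and 38.6 in NAc (2.52 ± 0.52, adjusted p = 0.0118 by limma, and 0.0723 without SNc replicate 3).

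Of 12 genes of oligodendrocyte precursors 3 fell and 0 rose, with a median difference of -1.73, while 2.06% of all genes tested fell. The 3 were Neu4, Sox10 and Vcan. Neu4, a sialidase of differentiating precursors, was at 0.231, 1.49 and 0.179 in SNc and at 32.4, 26.7 and 18.03 in NAc (-4.08 ± 0.80, adjusted p = 0.00764 by limma). Sox10, the lineage factor, was at 0.421, 0.319 and 3.95 in SNc and at 22.2, 14.99 and 12.5 in NAc (adjusted p = 0.0400, up to 0.150 without any library but SNc replicate 3). Vcan, a matrix proteoglycan, was at 1.63, 1.58 and 0.230 in SNc and at 11.2, 7.51 and 11.2 in NAc (adjusted p = 0.0243, up to 0.111 without SNc or NAc replicates 1 or 3). Pdgfra, the receptor that defines precursors, was at 4.79, 3.38 and 14.2 in SNc and at 16.5, 11.2 and 15.8 in NAc (adjusted p = 0.448), with SNc replicate 3 inside the NAc range. On quantile-normalized values 1 of the 12 was called, Neu4.

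**Figure D3:**
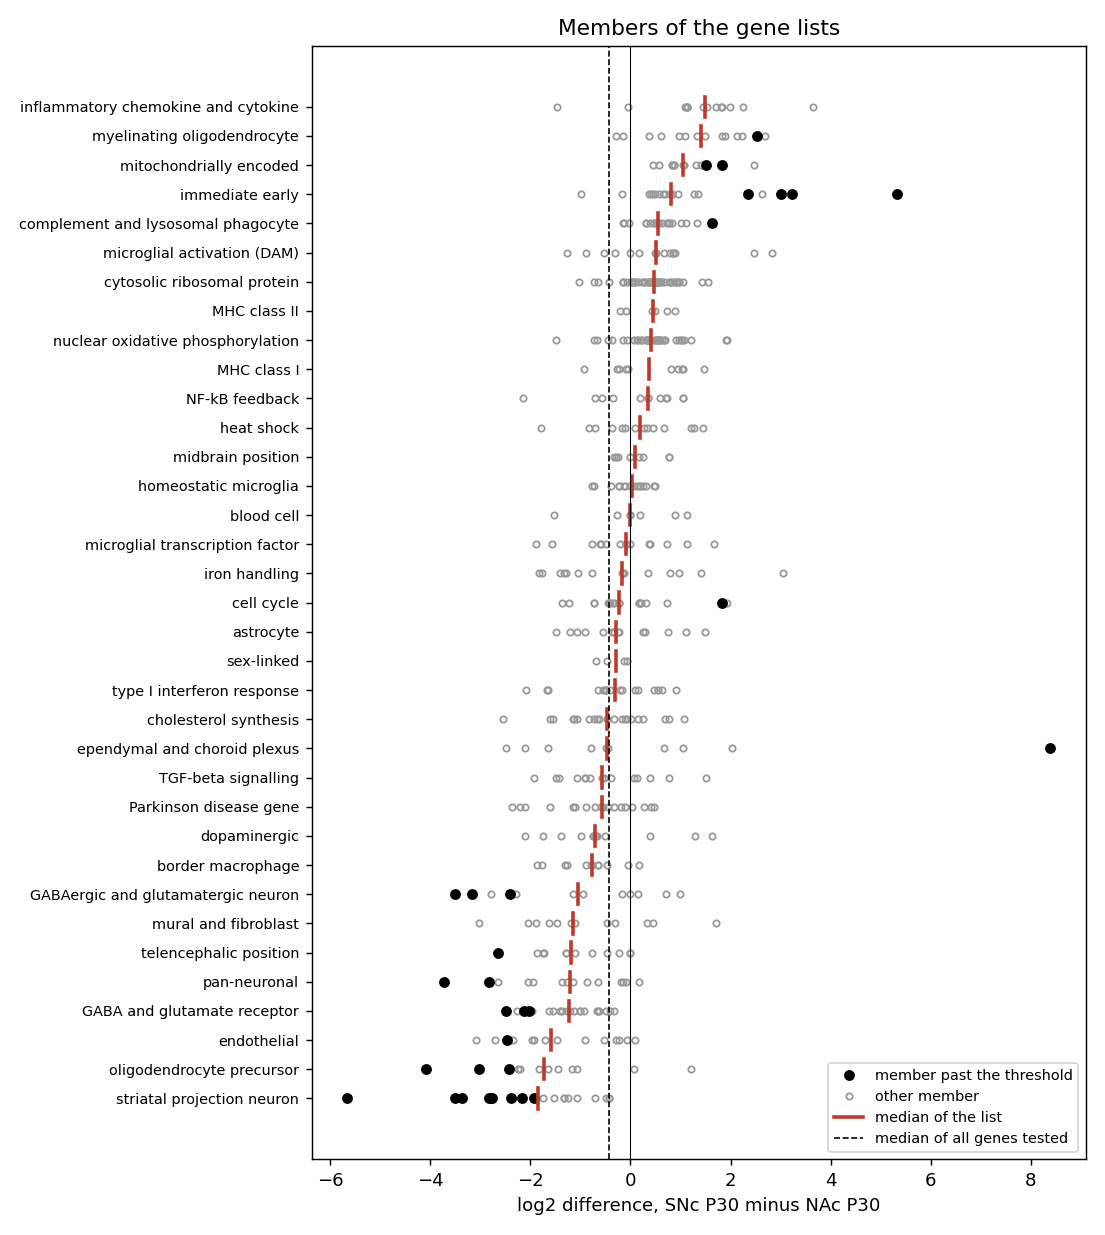
Log2 difference between SNc and NAc at P30 (horizontal axis) for the tested members of 35 gene lists (rows, ordered by median). Filled points passed the threshold, open points did not, the red bar is the list's median and the dashed line the median of all genes at -0.43. The striatal list has 9 filled points, all left of 0, and the immediate early list 4, all right of 0.

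Of 16 homeostatic microglial genes 0 passed, with a median difference of 0.03 (-0.45 on quantile-normalized values) and summed levels of 6243 to 10072 in SNc and 5339 to 7355 in NAc. Of 20 complement and lysosomal genes 1 rose, C1qc, 0 fell and 8 separated the regions with SNc higher (median difference 0.55, and 0.25 on quantile-normalized values). Among all genes tested 0.212% rose and 3.98% separated with SNc higher. C1qc, a subunit of complement C1q, was at 6431, 6216 and 5343 in SNc and at 825, 3048 and 2922 in NAc (1.62 ± 0.43, adjusted p = 0.0438 by limma). NAc replicate 1 was the lowest, and the call was lost without it or without any SNc library (up to 0.235). The partner subunit genes C1qa (adjusted p = 0.723) and C1qb (adjusted p = 0.339) did not pass. C1qb was at 5467, 8844 and 6815 in SNc and at 4555, 3331 and 4383 in NAc.

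Of 14 inflammatory chemokine and cytokine genes 0 passed the test. Of the 14, 7 separated the regions with SNc higher, against 3.98% of all genes tested, the median difference was 1.49, and the summed level was 1386 to 2634 in SNc and 402 to 768 in NAc. Il1b, interleukin 1 beta, was at 50.2, 46.1 and 53.6 in SNc and at 35.01, 0 and 0.866 in NAc (adjusted p = 0.0956 by limma). Ccl3, a chemokine, was at 271, 477 and 309 in SNc and at 149, 44.2 and 92.5 in NAc (adjusted p = 0.339). Tnf was at 21.8, 228 and 67.0 in SNc and at 10.98, 19.01 and 12.9 in NAc (adjusted p = 0.377). None of the 3 overlapped between the regions, and voom called 3 of the 14.

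Of 13 mitochondrially encoded genes 2 rose, mt-Nd6 and mt-Nd2, 0 fell and 9 separated the regions with SNc higher. The shares over all genes tested were 0.212% that rose and 3.98% that separated with SNc higher. The median difference was 1.05, the summed level was 42908 to 103813 in SNc and 24214 to 40387 in NAc, and the mitochondrial share of reads was highest in SNc replicates 1 and 3. Both genes encode subunits of respiratory complex I. The first, mt-Nd6, was at 504, 271 and 365 in SNc and at 182, 128 and 45.7 in NAc (1.84 ± 0.45, adjusted p = 0.0318 by limma, up to 0.158 without SNc replicates 1 or 3 or NAc replicate 3). The second, mt-Nd2, was at 1978, 1061 and 1678 in SNc and at 665, 641 and 355 in NAc (1.51 ± 0.39, adjusted p = 0.0401, up to 0.167 without any library but SNc replicate 2). Nuclear genes of oxidative phosphorylation had 0 of 39 past the threshold, with a median of 0.40. Of the 39, 15 separated the regions with SNc higher and 1 with SNc lower. Cytosolic ribosomal protein genes had 0 of 48 past the threshold, with a median of 0.48. Of the 48, 9 separated with SNc higher and 1 with SNc lower, and 18.6% of all genes tested separated with SNc lower. Voom called 3 of the 39 and 7 of the 48, all higher in SNc.

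Of 14 endothelial genes 1 fell, Tek, the angiopoietin receptor, at 0, 0 and 0.441 in SNc and at 6.89, 4.37 and 4.72 in NAc (adjusted p = 0.0391 by limma, lost without any 1 of the 6 libraries, up to 0.128). The endothelial median was -1.60, with 6 of 14 separating the regions and SNc lower in each. Among all genes tested 2.06% fell and 18.6% separated with SNc lower. The 12 genes of mural cells and fibroblasts had a median of -1.14 with 0 called. Of 14 astrocyte genes 0 passed (median -0.28, and 0.08 with voom), and of 12 border macrophage genes 0 passed (median -0.78). The water channel Aqp4 was at 83.3, 94.1 and 134 in SNc and at 81.3, 70.8 and 97.2 in NAc. Of 19 cell cycle genes 1 rose, cyclin A2 (Ccna2), at 4.27, 3.36 and 1.91 in SNc and at 0.145, 0.245 and 0.037 in NAc (adjusted p = 0.0467, lost without any 1 of the 6 libraries, up to 0.166). Among the 18 Parkinson disease genes 0 passed, and the median was -0.57. In all, 7 of the 35 lists had at least 2 members past the threshold, 6 had 1 and 22 had 0.

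The same regions at P7 and P60 show where the P30 difference stood apart in age. The difference between SNc and NAc at P30 differed from that at P7 for 125 genes (0.662% of those tested), 10 upward (0.0529%) and 115 downward (0.609%). Of these calls 8% were upward, against 25.9% after quantile normalization (22 upward and 63 downward) and 42.4% with voom (698 upward and 949 downward). The median of all genes in this difference was -0.47. The count was 24 without NAc P7 replicate 1, and between 43 and 68 without NAc P7 replicates 2 or 3, SNc P7 replicates 2 or 3 or SNc P30 replicates 1 or 3. Genes of neurons were among them. Syt1 averaged 24.0 in SNc and 13.02 in NAc at P7, and 3.69 in SNc and 37.8 in NAc at P60, with 3 libraries each. Its region difference at P30 was 4.59 below that at P7 on the log2 scale (SE 0.87, adjusted p = 0.0142 by limma), and 0.39 below that at P60 (adjusted p = 0.917). Gad2 averaged 9.05 in SNc and 4.88 in NAc at P7, and Dkk3 11.8 in SNc and 8.45 in NAc. Their region differences at P30 lay below those at P7 by 4.23 ± 0.90 (adjusted p = 0.0260) and 5.23 ± 1.01 (adjusted p = 0.0155). Nr4a2, a nuclear receptor of dopamine neurons and also an immediate early gene, averaged 57.3 in SNc and 1.97 in NAc at P7, and was at 0.211, 0 and 0.179 in SNc and at 4.14, 2.32 and 0.518 in NAc at P30 (a difference of -5.78 ± 0.86, adjusted p = 0.00369).

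Against P60 the P30 difference was another for 16 genes (0.0847%), 2 upward (0.0106%) and 14 downward (0.0741%). That is 12.5% upward. The split turned after quantile normalization, with 16 upward and 10 downward (61.5% upward), and was 3 and 5 on the deposited scale (37.5%). The count was 2 without SNc P30 replicate 3, 7 without SNc P30 replicate 1 and 8 without SNc P60 replicate 1. It was 48 without SNc P60 replicate 3, 46 without NAc P30 replicate 1, 44 without NAc P30 replicate 3, 39 without SNc P30 replicate 2 and 35 without NAc P60 replicate 1. Ttr averaged 53.4 in SNc and 975 in NAc at P60, the opposite order to P30 (a difference of 12.18 ± 1.502, adjusted p = 0.000445 by limma). At P7 it averaged 13.7 in SNc and 7.54 in NAc. Neu4 averaged 8.48 in SNc and 2.40 in NAc at P60, also the opposite order of means (-6.05 ± 1.14, adjusted p = 0.0286). The region difference at P60 itself did not pass for Ttr (adjusted p = 0.0561 by limma) or Neu4 (0.222). Neu4 overlapped between the regions at P60, at 12.1, 11.3 and 2.04 in SNc and at 7.21, 0 and 0 in NAc.

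Over ages, the median member of the striatal list, as log2(rescaled FPKM + 1), was 1.55 ± 0.33 in SNc and 1.87 ± 0.18 in NAc at P7 (SD, n = 3 each), 0.03 ± 0.04 in SNc and 2.82 ± 0.15 in NAc at P30, and 0.46 ± 0.40 in SNc and 2.64 ± 0.74 in NAc at P60. The pan-neuronal list was at 4.14 ± 0.11 in SNc and 3.55 ± 0.20 in NAc at P7, and at 1.85 ± 0.03 in SNc and 3.75 ± 0.02 in NAc at P30. The order of the regions in the pan-neuronal list at P30 was thus the reverse of that at P7, with the 3 libraries of each region apart at both ages. At P60 that list was at 2.70 ± 0.14 in SNc and 5.18 ± 0.42 in NAc, in the same order as at P30. In the immediate early list the median member was at 8.88 ± 0.12 in SNc and 7.82 ± 0.14 in NAc at P7, and at 7.14 ± 0.75 in SNc and 5.19 ± 0.57 in NAc at P30. At P60 it was at 7.21 ± 0.48 in SNc and 5.48 ± 0.57 in NAc, and SNc was above NAc at each age. These list medians were not tested between ages, and library titles open with another date-like number at each age, so that number and age cannot be told apart.

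**Figure D4:**
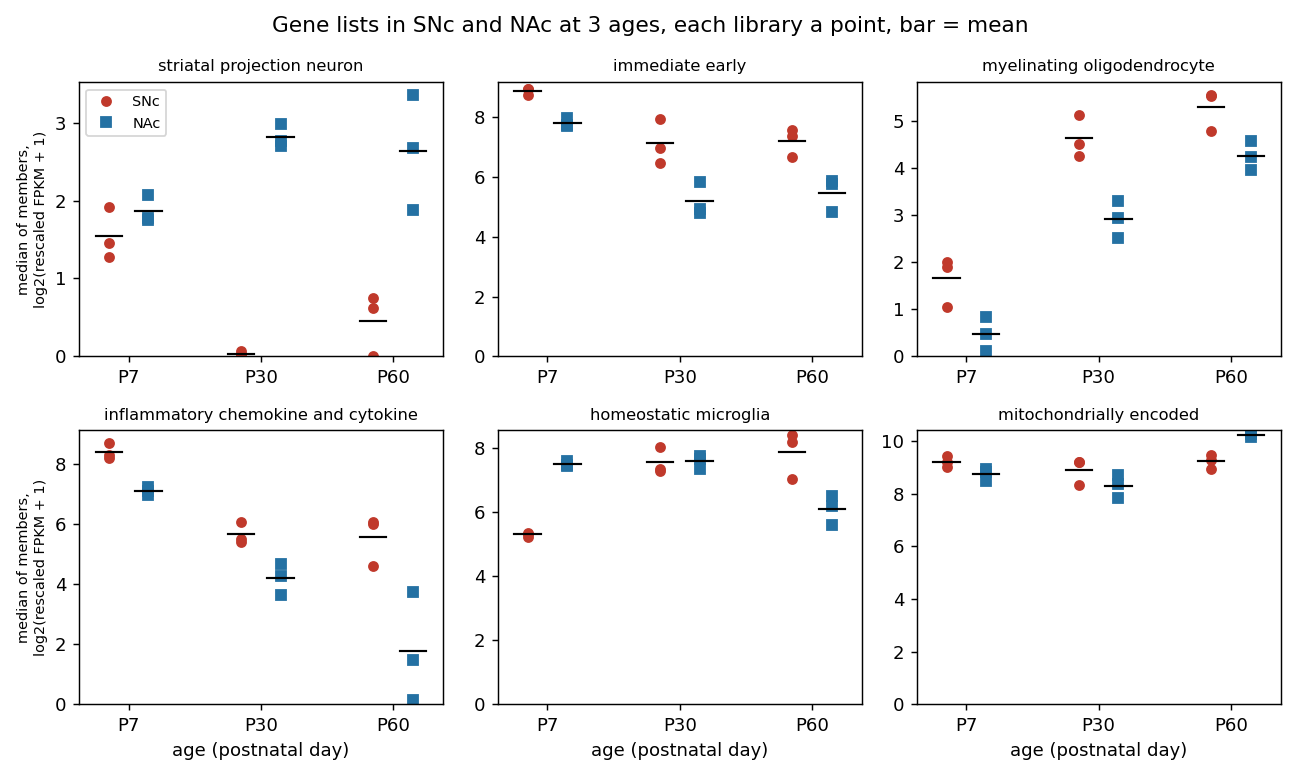
Median member of 6 gene lists in each SNc library (red circles) and NAc library (blue squares) at P7, P30 and P60 (horizontal axis), as log2 of rescaled FPKM + 1 (vertical axis, its range differing between panels), with a black bar at the mean of 3 libraries. At P30 the striatal list lies near 0 in SNc and at 2.70 to 2.99 in NAc, and the immediate early, myelin and chemokine lists lie higher in SNc without overlap.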

How the data were processed

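The deposited table holds FPKM of 54532 genes in 27 libraries. Alignment used HISAT2 with GRCm38 (mm10), per the submitters' processing notes, and the sources used here do not name the read counter. The table lacks the capital M and its name column is shifted, so symbols were taken by gene ID (54409 matched, 123 did not). Values times gene length gave whole reads within 0.02 for 100% of low values checked. VTA P30 replicate 3 was deposited as a score, proportional to FPKM but with another divisor. The alternative on the deposited scale kept that library in this unit.

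Each library was rescaled to its sum of FPKM times length. Genes at 1 or more in at least 3 libraries were kept. limma 3.58.1 (R 4.3.3; lmFit, eBayes with trend and robust) was fitted to log2(value + 1) of 27 libraries with a term per group and Benjamini-Hochberg adjustment at 0.05. This scale understates fold changes of low genes. Precision is limited by 3 libraries per group, and floors of 3 reads cover counting error only. Each SE rests on the spread shared by all groups, although groups differ in spread. For Jun the SD of the NAc values was 30.0 at P7 and 318 at P30. On simulated data for the P30 comparison (18888 genes), 2 of 50 genes changed 2-fold, 7 of 50 changed 4-fold, 32 of 50 changed 8-fold and 49 of 50 changed 16-fold were called.

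The gene lists and the comparison were chosen with earlier results of these data known. Genes were named by rule: the 15 largest increases and 15 largest decreases among called genes without overlap and with a mean of 5 or more in the higher region, up to 4 called members of lists with at least 2, 10 fixed genes, and the 3 smallest adjusted p in each direction of the age differences. Other list members named were chosen after their values were seen. Some genes that the rule or the lists select are not reported here. Replicates of a group differed by 60.5 to 181 times the counting variance, so none was a duplicate. The voom alternative ran in limma with trimmed-mean size factors on the recovered reads. Python 3.11.15, numpy 2.4.6, pandas 2.3.3 and matplotlib 3.10.9 were also used.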

Additional observations from a re-analysis of the deposited data

Results flagged for a closer look

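The region difference (SNc minus NAc, log2) at P30 differed from that at another age, by limma's test of the difference, for the genes below. Against P7 the P30 difference was higher for Ttr (7.44), Gngt2 (4.72) and Egr1 (4.09). Gngt2, a G protein subunit, averaged 1.48 in SNc and 17.8 in NAc at P7, and was at 75.1, 102 and 91.6 in SNc and at 32.5, 25.0 and 20.9 in NAc at P30. Egr1 averaged 456 in SNc and 826 in NAc at P7. Against P7 it was lower for Nr4a2 (-5.78), Dkk3 (-5.23), Syt1 (-4.59), Caly (-4.34), Gad2 (-4.23), Rasd2 (-3.66), Eno2 (-3.49), Csf2 (-3.24), Dram1 (-3.23) and Gria2 (-2.85). At P60 too SNc was below NAc, past the threshold by limma, for Dkk3 (-2.93), Syt1 (-3.34), Caly (-2.99) and Eno2 (-2.80). The region difference at P60 did not pass for the other genes named here against P7. Csf2, the cytokine GM-CSF, had 0 reads in all 6 libraries at P30 and averaged 9.17 in SNc and 0 in NAc at P7. Dram1, a lysosomal membrane protein gene, averaged 12.5 in SNc and 0.409 in NAc at P7. Against P60 the P30 difference was higher for Ttr (12.18) and for Slc13a4 (4.53), a sulfate transporter of choroid plexus and meninges. Slc13a4 was at 7.86, 2.70 and 5.92 in SNc and at 0.652, 1.26 and 1.69 in NAc at P30. At P60 it averaged 0.120 in SNc and 10.1 in NAc. The P30 difference was lower than that at P60 for Neu4 (-6.05), Trac (-5.72) and Bfsp2 (-5.31). Slc13a4 (-3.03), Trac (4.37) and Bfsp2 (3.27) passed between the regions at P60 by limma, and not at P30. Trac, the T cell receptor alpha constant gene, averaged 23.0 in SNc and 0.027 in NAc at P60. Bfsp2, a filament protein gene, averaged 11.9 in SNc and 0.251 in NAc at P60. No cause of these differences was tested.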

How the results depend on the processing

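The 45 named genes past the threshold kept their direction in every alternative. Their SNc and NAc values did not overlap, so leaving out a library or changing the filter or pseudocount could not have turned the direction. The number still called was 45 under other filters and without VTA P30 replicate 3, 26 with a pseudocount of 0.1, 26 on the deposited scale, 33 after quantile normalization, 36 with voom, 23 to 31 with 1 of the 6 libraries left out, and 0 in the fit of the 6 libraries alone. For SNc against NAc at P30 the count of 429 was 266 with a filter of at least 5, 217 with a pseudocount of 0.1, 118 on the deposited scale, 155 after quantile normalization, 742 with voom, 685 without VTA P30 replicate 3 and 125 to 319 with a library left out. It was 0 in the 6 libraries alone, without and with the block (3141 and 2552 at an unadjusted p below 0.05). For the difference from P7 the count of 125 was 69 with a filter of at least 5, 4 with a pseudocount of 0.1, 53 on the deposited scale, 1647 with voom, 315 without VTA P30 replicate 3 and 24 to 117 with a library left out. For the difference from P60 the count of 16 was 9 with a filter of at least 5, 8 on the deposited scale, 26 after quantile normalization, 380 with voom, 98 without VTA P30 replicate 3 and 2 to 48 with a library left out. Chosen after seeing the data, leaving out 4 libraries with few detected genes (replicate 3 of VTA at P30, of NAc at P60 and of SNc at P60, and replicate 2 of VTA at P60) gave 1306, 723 and 152, and SNc replicate 2 as the lone SNc P30 library gave 9. Replicate numbers are shared between regions, without a statement that the same number means the same mice. Deviations of same-numbered libraries correlated at -0.0677 to 0.00771, and those of other-numbered libraries at -0.0537 to 0.0663. With 3 libraries per region these values cannot settle whether the numbers pair the libraries. With a replicate block the counts were 315 (P30), 39 (difference from P7) and 4 (difference from P60). The fits on the deposited scale held VTA P30 replicate 3 in its other unit, in the filter and in the shared spread. Their counts therefore do not show the effect of rescaling the other libraries alone. The causes of these shifts were not tested. Depth of 6660850 to 10169545 reads in genes limits genes at a few reads.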
